A study of Mus musculus with 7 samples.

Results

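The genes described here encode 7 cell surface proteins by which crypt cells of the intestine are commonly stained and sorted: Cd24a, Kit, Cd44, Alcam, Prom1, Itga6 and Itgb4. Members were all gene probes carrying one of these names on a dual-colour Agilent whole mouse genome array, which gave 13 probes for 7 of the 28146 gene names on the array. Cd44 and Itgb4 had 3 probes each, Prom1 and Itga6 had 2 each, and Cd24a, Kit and Alcam had 1 each. The samples were sorted from mouse intestine. Of 7 arrays, 6 held GFP-high cells of Dll1-EGFP-ires-CreERT2 mice, in which green fluorescent protein (GFP) follows the promoter of the Notch ligand gene Dll1. CD24 staining had divided these cells into 3 levels, called CD24 low, medium and high, with 2 arrays per level. The remaining array held GFP-high cells of Lgr5-EGFP-ires-CreERT2 mice, in which GFP follows the promoter of the stem cell gene Lgr5. Every group thus carried a GFP and CreERT2 allele, and no treatment, age or number of animals is given in the labels. The series calls the 2 arrays per CD24 level biological replicates without tying them to animals, so p-values measure the spread between these arrays. Lgr5 had 1 array, so its own spread is unknown and was assumed to be like that of the other groups. The comparisons ask how these surface marker transcripts differ between CD24 levels of Dll1 cells, and between each level and Lgr5 cells.

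CD24 is a small, heavily glycosylated protein held in the membrane by a lipid anchor, and in the crypt it is abundant on Paneth cells. KIT is a receptor tyrosine kinase whose ligand is stem cell factor, encoded by Kitl. CD44 binds hyaluronan and is a target of Wnt signalling at the crypt base, ALCAM (CD166) is an adhesion molecule of the immunoglobulin family, and prominin 1 (CD133) sits on membrane protrusions. The integrin chains alpha 6 and beta 4 pair into the laminin receptor of hemidesmosomes, the anchors of epithelial cells to the basement membrane.

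Each probe is 60 bases long, and positions are those of the array files on mouse build mm9. The sequences of 3 probes are shown because each reads without a stop codon in 1 frame, and because they mark what these probes can and cannot see. The Cd44 probe at chr2:102674420-102674479 (minus strand) lies 1851 bases into its transcript, in a stretch that, from general knowledge of the Cd44 protein, belongs to the alternatively spliced exons of the extracellular stem. A second Prom1 probe lies at chr5:44397410-44397469 (minus strand), 2436 bases into the transcript. The Alcam probe covers chr16:52268908-52270785 (minus strand), a span of 1878 bases for 60 bases of probe, so it crosses an intron and reads spliced RNA. All are given 5′ to 3′ in lower case.
Cd44, variable region: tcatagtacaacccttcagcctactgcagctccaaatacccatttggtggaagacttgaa
Prom1, second probe: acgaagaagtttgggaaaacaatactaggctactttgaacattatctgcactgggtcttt
Alcam: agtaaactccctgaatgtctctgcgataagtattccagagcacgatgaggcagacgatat

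The other Cd44 probes sit at chr2:102652907-102652966 (first probe, transcript position 3985) and chr2:102651667-102651726 (second probe, position 5225), both on the minus strand. The first Prom1 probe is at chr5:44385331-44385390 (minus strand), and the Kit probe is at chr5:76052287-76052346 (plus strand). Those of Itga6 are at chr2:71695973-71696032 (first) and chr2:71694194-71694253 (second), on the plus strand. The first and second Itgb4 probes, at chr11:115869557-115869616 and chr11:115869547-115869606 (plus strand), share 50 bases and are therefore not independent. The third Itgb4 probe, at chr11:115855887-115855946, was designed on a cDNA clone. Cd24a was read at chr10:43303706-43303765 (plus strand). Exon and UTR annotation on this build was not used here. The second Cd44 probe and the Kit probe were spotted 10 times per array, and their log2 ratios had an SD over spots of 0.04 to 0.11 and 0.04 to 0.12.

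All levels are log2 ratios of the sorted cells over RNA of whole small intestine, which was hybridised to every array in the other dye. Loess centred each array, so 0 is that array's usual ratio at the intensity of the probe, not an equal amount of RNA. Above or below whole intestine means above or below this 0. The ratios rank groups for 1 probe, never 1 gene against another. Signal of the sorted cells was well above background for 42.5 and 44.4% of spots on the CD24 high arrays, and for 52.8 to 60.5% on the others. All 13 probes passed the filter, a sample signal well above background on 2 or more arrays. Of them, 11 were above background on all arrays, the second Cd44 probe on 5 and the third on 3. The promoter gene Dll1 was at 2.56 and 2.52 in CD24 low, 2.81 and 2.53 in CD24 medium, 0.61 and −0.04 in CD24 high, and 0.88 in Lgr5. The CD24 high arrays thus lay below the Lgr5 array for Dll1, although they are labelled as Dll1 GFP high. The transcript Lgr5 was at −1.23 and −0.75 in CD24 low, −0.66 and −0.54 in CD24 medium, 1.36 and 1.31 in CD24 high, and 2.51 in Lgr5.

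Cd24a, whose protein chose the fractions, is a check of the gates and was not tested between them. It read −0.68 and −0.59 in CD24 low, 0.88 and 0.75 in CD24 medium, 3.34 and 3.47 in CD24 high, and −0.11 in Lgr5. The 3 levels followed the order of the sort without overlap, and the Lgr5 array fell between CD24 low and CD24 medium. The differences were −1.45 for CD24 low minus CD24 medium, −4.04 for CD24 low minus CD24 high and −2.59 for CD24 medium minus CD24 high. The CD24 gate also set the level of each Dll1 fraction compared with Lgr5, so those Cd24a values are a check as well. Against Lgr5, Cd24a was higher in CD24 high by 3.51 (SE 0.19, 11.4-fold, limma adjusted p = 9.27e-05). It was higher in CD24 medium by 0.92 (SE 0.19, limma adjusted p = 0.0209). That call was lost without CD24 medium replicate 1 (difference 0.85) or replicate 2 (difference 0.99). It was also lost with Agilent's processed ratios (limma adjusted p = 0.0676) and with the sample channel alone (difference 0.58, limma adjusted p = 0.0858). CD24 low differed from Lgr5 by −0.53 (95% interval −0.98 to −0.08), which missed the threshold (limma adjusted p = 0.0947).

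**Figure D1:**
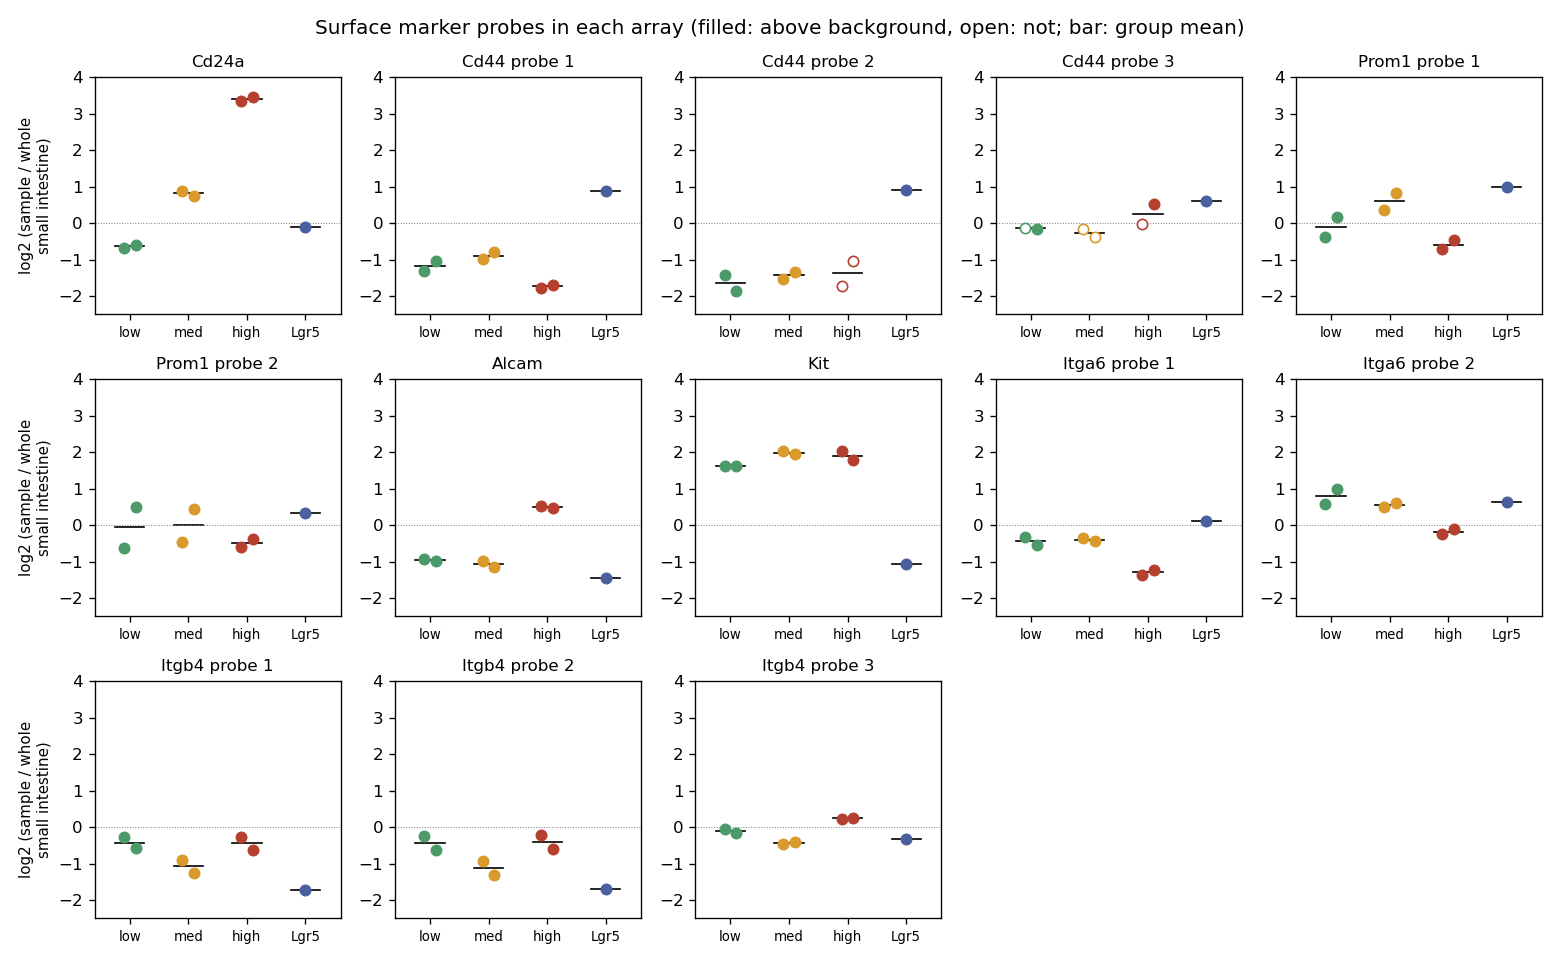
Log2 ratio over whole small intestine (vertical axis) for each of the 13 probes in CD24 low, CD24 medium, CD24 high and Lgr5 arrays. Each point is 1 array, open points are not well above background, and bars are group means. Kit sits between 1.61 and 2.04 on the 6 Dll1 arrays and at −1.06 on the Lgr5 array, the first 2 Cd44 probes are highest on the Lgr5 array, and Alcam is above 0 on the CD24 high arrays only.

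Leaving out Cd24a, 12 probes of the 6 other genes were compared between CD24 levels, and all 13 probes were compared with Lgr5. A call is a limma adjusted p under 0.05 over all 24495 probes tested (24405 against Lgr5). Between CD24 low and CD24 medium, 0 of 12 probes passed in limma, where 0.0857% of all probes did. At an unadjusted p under 0.05 there were 3 of 12 (the first Prom1 probe and the overlapping Itgb4 pair), beside 10.2% of all probes. Between CD24 low and CD24 high, 3 of 12 passed, against 15.5% of all probes. Of these, 2 were higher in CD24 low (5.97% of all probes) and 1 was lower (9.57%). Between CD24 medium and CD24 high, 6 of 12 passed, against 18.9% of all probes. Of these, 4 were higher in CD24 medium (6.81% of all probes) and 2 were lower (12.1%). The count of 6 dropped to 1 or 2 when any array of these groups was left out (2 without CD24 medium replicate 1, 1 without replicate 2, 1 without CD24 high replicate 1, 2 without replicate 2). Without CD24 high replicate 1, the count between CD24 low and CD24 high was 1. Against Lgr5, 6 of 13 probes passed for CD24 low, where 20.8% of all probes did, with 3 higher (11.7%) and 3 lower (9.07%). For CD24 medium 4 of 13 passed, where 17.7% did, with 2 higher (9.77%) and 2 lower (7.96%). For CD24 high against Lgr5, 10 of 13 passed, where 33.4% of all probes did, with 5 higher (19.8%) and 5 lower (13.6%). Without Cd24a, whose level the gate chose, 6 of 12 passed for CD24 low, 3 of 12 for CD24 medium and 9 of 12 for CD24 high. The 3 comparisons with Lgr5 share its single array, so an error of that array enters all of them. Median differences over the member probes were 0.04, 0.01 and 0.02 between levels, and −0.39, −0.10 and −0.35 against Lgr5, beside 0.04, 0.02, 0.00, 0.10, 0.08 and 0.09 over all probes.

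Kit was high in all Dll1 cells and low in the Lgr5 cells. The log2 ratio was 1.63 and 1.61 in CD24 low, 2.04 and 1.94 in CD24 medium, 2.03 and 1.79 in CD24 high, against −1.06 in Lgr5. Every Dll1 array lay above whole intestine and the Lgr5 array below it, with no overlap. Kit was higher than in Lgr5 by 2.68 in CD24 low (SE 0.20, 6.42-fold, limma adjusted p = 0.000819). It was higher by 3.05 in CD24 medium (SE 0.20, 8.29-fold, limma adjusted p = 0.000669) and by 2.97 in CD24 high (SE 0.20, 7.82-fold, limma adjusted p = 0.00021). By absolute difference Kit ranked 351, 248 and 588 of 24405 probes in these comparisons. All 3 calls were kept under each of the 20 alternatives run, with differences between 2.13 and 3.33. Not all of these alternatives are separate checks, and all of them use the single Lgr5 array. On the slide that CD24 medium 1 and CD24 high 1 shared with Lgr5, the differences were 3.10 and 3.09, and CD24 low shared no slide with Lgr5. Among CD24 levels Kit did not pass in any comparison, with differences of −0.37 for CD24 low minus CD24 medium (95% interval −0.75 to 0.02), −0.29 for CD24 low minus CD24 high (−0.67 to 0.10) and 0.08 for CD24 medium minus CD24 high (−0.30 to 0.47).

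In sorted cells measured in bulk, fewer cells that carry a transcript and less of it per cell cannot be told apart. Kit is also known from mast cells and from the interstitial cells of Cajal, the pacemaker cells of the gut wall. Of 7 mast cell markers, 4 were above background in CD24 low, 3 in CD24 medium, 4 in CD24 high and 3 in Lgr5. The summed signal of that list was 739 to 750 in CD24 low, 744 to 751 in CD24 medium and 934 to 995 in CD24 high, against 778 in Lgr5. The protease genes Mcpt1 and Mcpt4 were both below the level of whole intestine on every array, Mcpt1 at −1.65 and −1.76 in CD24 low, −2.11 and −1.95 in CD24 medium, −0.74 and −0.63 in CD24 high, and −2.56 in Lgr5. Of the 2 markers used for interstitial cells of Cajal, Ano1 and Etv1, neither was above background in CD24 high or Lgr5. Etv1 was above background in CD24 low (−0.21 and 1.102) and CD24 medium (0.72 and 2.02), and Ano1 lay below whole intestine on every array. Of the 4 mast cell markers that passed the filter, 2 were higher in CD24 high than in Lgr5, 1 was higher in CD24 low and 0 in CD24 medium. The part of such cells in the Kit values was not tested in any group.

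Kitl, the gene of the KIT ligand, was at −1.13 and −1.78 in CD24 low, −1.73 and −2.15 in CD24 medium, −1.94 and −1.31 in CD24 high (both not well above background), and −0.54 in Lgr5. It was lower than in Lgr5 in CD24 medium by a log2 difference of −1.39 (SE 0.38, limma adjusted p = 0.0475), a call lost without either CD24 medium array (0.0749 and 0.172). The differences for CD24 low (−0.91, adjusted p = 0.133 in limma) and CD24 high (−1.08, adjusted p = 0.068 in limma) missed the threshold. Of 11 genes of KIT signalling, 8 were measured. Against Lgr5, 1 of 8 was lower in CD24 low, 1 in CD24 medium and 2 in CD24 high. None was higher, and none passed between CD24 levels. Over all genes 21.8, 18.8 and 35.7% passed against Lgr5. Shares of all genes, here and for the lists below, count calls in either direction. The gene lower in all 3 was Pik3r1, the regulatory subunit of PI3 kinase, at −1.78 in CD24 low, −1.87 in CD24 medium and −1.84 in CD24 high relative to Lgr5 by its brightest probe (limma adjusted p = 0.0149, 0.0138 and 0.00741). Its 3 further probes gave −0.998 to −0.25 in CD24 low, −0.51 to −0.01 in CD24 medium and −0.55 to −0.03 in CD24 high.

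**Figure D2:**
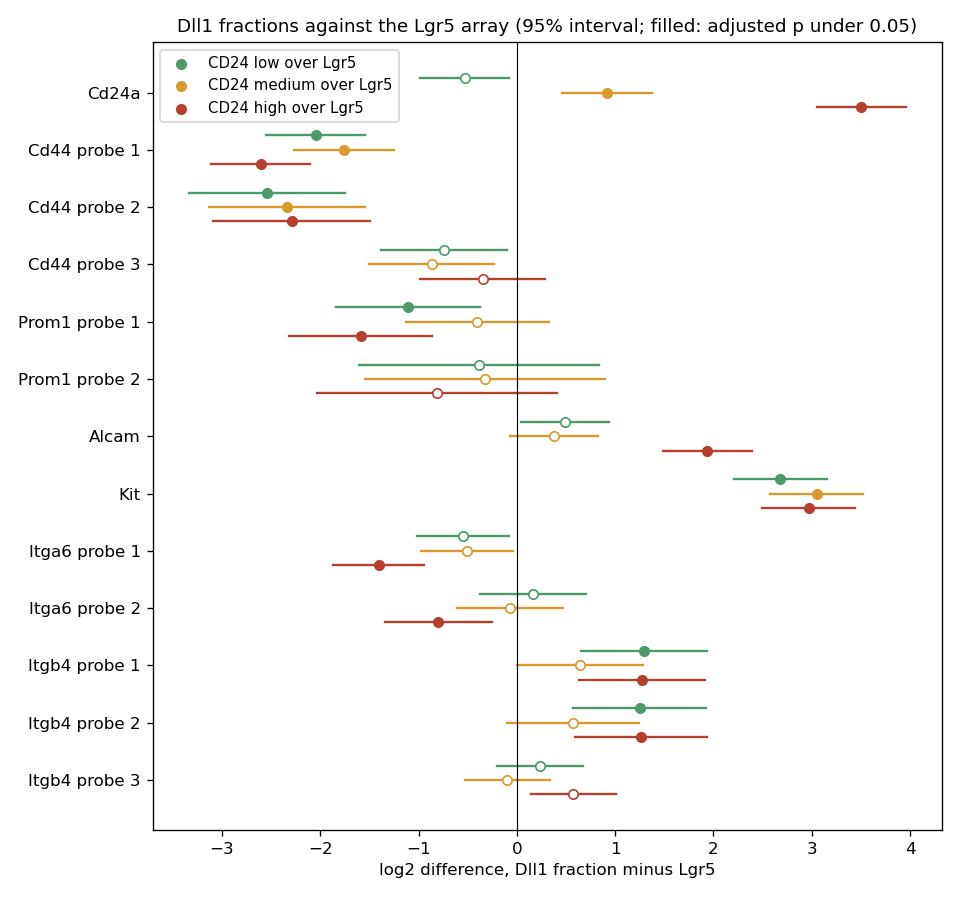
Log2 difference of CD24 low, CD24 medium and CD24 high from the Lgr5 array (horizontal axis) for each probe, with 95% intervals from limma. Filled points passed at an adjusted p under 0.05. All 3 Kit points lie between 2.68 and 3.05, and the first 2 Cd44 probes lie between −2.61 and −1.76.

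Cd44 was lower in every Dll1 fraction than in Lgr5 cells by the 2 probes nearest the end of the transcript. The first probe read −1.31 and −1.04 in CD24 low, −0.996 and −0.79 in CD24 medium, −1.77 and −1.71 in CD24 high, against 0.87 in Lgr5. The second probe read −1.42 and −1.85 in CD24 low, −1.52 and −1.34 in CD24 medium, and 0.91 in Lgr5. Neither CD24 high array was above background for the second probe (−1.73 and −1.03). Only the Lgr5 array lay above whole intestine for these probes. By the first probe Cd44 was lower than in Lgr5 by a log2 difference of −2.05 in CD24 low (SE 0.21, 4.13-fold, limma adjusted p = 0.00218). In CD24 medium the difference was −1.76 (SE 0.21, 3.39-fold, limma adjusted p = 0.00401), and in CD24 high −2.61 (SE 0.21, 6.09-fold, limma adjusted p = 0.000384). The second probe gave −2.55 in CD24 low (SE 0.33, limma adjusted p = 0.00466) and −2.34 in CD24 medium (SE 0.33, limma adjusted p = 0.00649). In CD24 high, where it was not above background on either array, it gave −2.29 (SE 0.33, limma adjusted p = 0.00305), a value that this limits. These 6 calls were kept under each alternative run. For the second probe in CD24 high the difference from Lgr5 ranged over the alternatives between −5.86, with Agilent's processed ratios, and −1.94, without CD24 high replicate 1.

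The third Cd44 probe, in the variable region printed above, read −0.13 and −0.16 in CD24 low, −0.16 and −0.37 in CD24 medium, −0.03 and 0.53 in CD24 high, and 0.60 in Lgr5. It was above background on CD24 low replicate 2, CD24 high replicate 2 and Lgr5 only, and reference signal was above background on all arrays. No comparison of this probe passed, and the differences from Lgr5 were −0.74 (95% interval −1.38 to −0.10) for CD24 low, −0.87 (−1.50 to −0.23) for CD24 medium and −0.35 (−0.99 to 0.29) for CD24 high. Over the 7 arrays it correlated with the first probe at r = 0.36 and with the second at r = 0.75, while the first and second correlated at r = 0.85. Whether probes differ in their response was not tested.

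Between CD24 levels, the first Cd44 probe was higher in CD24 medium than CD24 high by 0.85 (SE 0.17, 1.80-fold, limma adjusted p = 0.0198). The call was lost when any of the 4 arrays was left out (adjusted p 0.0673 to 0.126 in limma). The mean of the 3 probes differed by 0.09. With the second probe the difference was −0.05, and with the third −0.52. CD24 low minus CD24 high was 0.56 with the first probe (95% interval 0.15 to 0.97, limma adjusted p = 0.0761). The second probe is dim in CD24 high, and Agilent's processed ratios gave 2.09 for CD24 low minus CD24 high (−0.25 here) and 2.95 for CD24 medium minus CD24 high (−0.05 here).

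Alcam was highest in CD24 high cells. It was at −0.92 and −0.97 in CD24 low, −0.97 and −1.14 in CD24 medium, 0.53 and 0.47 in CD24 high, and −1.44 in Lgr5. Both CD24 high arrays lay above whole intestine and the other 5 arrays below it. CD24 low was lower than CD24 high by a difference of −1.45 (SE 0.15, 2.73-fold, limma adjusted p = 0.00168). CD24 medium was lower than CD24 high by −1.56 (SE 0.15, 2.95-fold, limma adjusted p = 0.00148). CD24 medium minus CD24 high was −1.50 on slide 1 and −1.62 on slide 2. CD24 high was higher than Lgr5 by 1.94 (SE 0.19, 3.83-fold, limma adjusted p = 0.00071). These 3 calls were kept under each alternative, with absolute differences between 1.19 and 2.22. CD24 low and CD24 medium did not pass against each other (0.11, 95% interval −0.25 to 0.48). Against Lgr5 they were higher by 0.49 (0.04 to 0.94, limma adjusted p = 0.111) and 0.38 (−0.07 to 0.83, limma adjusted p = 0.214) in value.

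CD6, the best known partner of ALCAM, is a lymphocyte receptor. Cd6 read −1.51 and −1.38 in CD24 low, −2.28 and −1.78 in CD24 medium, −1.70 and −1.06 in CD24 high, and −2.60 in Lgr5, all below whole intestine. By this probe it was higher than Lgr5 in CD24 low (1.15, limma adjusted p = 0.0496) and CD24 high (1.21, limma adjusted p = 0.0289), while the other Cd6 probe gave −0.11 and −0.14. The call was lost for CD24 low without its replicate 1 (0.0755) or 2 (0.128) or without either replicate of CD24 medium (0.0575), and for CD24 high without its replicate 2 (0.0859). ALCAM is also found on leukocytes. Of 11 leukocyte markers, 5 to 6 were above background in CD24 high, against 9 to 10 in CD24 low, 9 in CD24 medium and 7 in Lgr5. Their summed signal was 1400 to 1480 in CD24 low, 1388 to 1447 in CD24 medium and 1625 to 3340 in CD24 high, against 1467 in Lgr5. The leukocyte gene Coro1a was between −3.52 and −2.10 on all arrays. Of the 9 leukocyte markers that passed the filter, 5 were higher in CD24 high than in Lgr5, where 35.7% of all genes passed in either direction. Relative to CD24 high, 1 of 9 was lower in CD24 low and 2 of 9 were lower in CD24 medium, where 17.4 and 20.6% of all genes passed. The part of such cells in the Alcam values was not tested.

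Prom1 was highest in Lgr5 cells and lowest in CD24 high cells by its first probe. That probe read −0.38 and 0.17 in CD24 low, 0.37 and 0.83 in CD24 medium, −0.71 and −0.47 in CD24 high, and 1.00 in Lgr5. CD24 high was lower than Lgr5 by a difference of −1.59 (SE 0.31, 3.01-fold, limma adjusted p = 0.00866). CD24 medium was higher than CD24 high by 1.19 (SE 0.25, 2.27-fold, limma adjusted p = 0.0215), lost without CD24 medium replicate 2 (0.12), CD24 high replicate 1 (0.0863) or CD24 high replicate 2 (0.0644). CD24 low minus Lgr5 was −1.11 (SE 0.31, limma adjusted p = 0.0457), and that call was lost in 12 of 20 alternatives, among them leaving out CD24 low replicate 1 (difference −0.84). The 12 count the series matrix beside Agilent's processed ratios, which it repeats. CD24 medium minus Lgr5 was −0.40 (95% interval −1.13 to 0.33).

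The second Prom1 probe, printed above, had replicates far apart. It read −0.62 and 0.50 in CD24 low, −0.45 and 0.45 in CD24 medium, −0.59 and −0.39 in CD24 high, and 0.32 in Lgr5. Groups overlapped except that both CD24 high arrays lay below Lgr5, and no comparison passed. Its differences from Lgr5 were −0.39, −0.32 and −0.81, and that for CD24 medium minus CD24 high was 0.49 (95% interval −0.51 to 1.49). With the mean of both probes, CD24 high minus Lgr5 was −1.20 (limma adjusted p = 0.0646). The paralogue Prom2 was above background on the CD24 high arrays only (−0.23 and −0.01). For Prom2, CD24 low was at least 1.64-fold lower than CD24 high (limma adjusted p = 0.0398), lost without CD24 low replicate 2 and without any CD24 medium or CD24 high array (0.0581 to 0.165). CD24 medium was at least 2.01-fold lower than CD24 high (limma adjusted p = 0.0163), lost without CD24 medium replicate 2 (0.099) or CD24 high replicate 2 (0.0845). CD24 high was at least 2.09-fold higher than Lgr5 (limma adjusted p = 0.0131), lost without CD24 high replicate 2 (0.051).

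Itga6, the laminin-binding alpha chain, was lowest in CD24 high by both probes. The first read −0.34 and −0.54 in CD24 low, −0.36 and −0.43 in CD24 medium, −1.36 and −1.23 in CD24 high, and 0.11 in Lgr5. The second read 0.59 and 0.99 in CD24 low, 0.51 and 0.60 in CD24 medium, −0.23 and −0.12 in CD24 high, and 0.62 in Lgr5. Both CD24 high arrays lay below the other 5 arrays for each probe, though the probes place whole intestine at different heights. CD24 low was higher than CD24 high by 0.86 (SE 0.16, limma adjusted p = 0.0146) and 0.96 (SE 0.19, limma adjusted p = 0.0169). CD24 medium was higher than CD24 high by 0.90 (SE 0.16, limma adjusted p = 0.0122) and 0.73 (SE 0.19, limma adjusted p = 0.0379). CD24 high was lower than Lgr5 by a difference of −1.41 (SE 0.20, 2.65-fold, limma adjusted p = 0.00255) and −0.80 (SE 0.23, 1.74-fold, limma adjusted p = 0.035). The first probe's call against Lgr5 was kept under each alternative. The second probe's was lost without CD24 medium replicate 1 or 2 (0.0646 each), CD24 high replicate 1 (0.103) or replicate 2 (0.0736).

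For the first Itga6 probe, the call between CD24 low and CD24 high was lost without CD24 high replicate 1 (limma adjusted p = 0.0691). Between CD24 medium and CD24 high it was lost without CD24 medium replicate 1 (0.0786), CD24 medium replicate 2 (0.0721) or CD24 high replicate 1 (0.0515). For the second Itga6 probe, CD24 low against CD24 high was lost without CD24 low replicate 2 (0.0712), CD24 high replicate 1 (0.0768) or CD24 high replicate 2 (0.0584). CD24 medium against CD24 high was lost without any of its 4 arrays (0.109 to 0.178). The differences themselves stayed between 0.67 and 1.02 in these fits.

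Itgb4, the partner chain of Itga6 in hemidesmosomes, was lowest in the Lgr5 cells by the overlapping pair of probes. The first read −0.26 and −0.59 in CD24 low, −0.89 and −1.26 in CD24 medium, −0.26 and −0.63 in CD24 high, and −1.72 in Lgr5. The second read −0.24 and −0.63 in CD24 low, −0.93 and −1.30 in CD24 medium, −0.23 and −0.61 in CD24 high, and −1.68 in Lgr5. By the first probe Itgb4 was higher than in Lgr5 by 1.30 in CD24 low (SE 0.27, 2.46-fold, limma adjusted p = 0.0192) and by 1.27 in CD24 high (SE 0.27, 2.42-fold, limma adjusted p = 0.0122). CD24 medium was 0.65 above Lgr5 (95% interval 0.00 to 1.29, limma adjusted p = 0.149). The overlapping second probe gave 1.25 for CD24 low (limma adjusted p = 0.025) and 1.26 for CD24 high (limma adjusted p = 0.015), lost without CD24 low replicate 1 (0.0561) and without CD24 high replicate 1 (0.053). With the sample channel alone, the first probe's differences were 0.84 (limma adjusted p = 0.0542) and 0.65 (limma adjusted p = 0.0781).

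The third Itgb4 probe gave another order. It read −0.04 and −0.17 in CD24 low, −0.45 and −0.41 in CD24 medium, 0.23 and 0.24 in CD24 high, and −0.34 in Lgr5. CD24 medium was lower than CD24 high by a difference of −0.67 (SE 0.15, 1.59-fold, limma adjusted p = 0.0255), lost without any of the 4 arrays (0.0773 to 0.135). The overlapping pair gave −0.63 (limma adjusted p = 0.093) and −0.70 (limma adjusted p = 0.0808) for this comparison. With the replicate number as a block these became 0.0329 and 0.025. Against Lgr5 the third probe gave 0.23, −0.10 and 0.58, none past the threshold (0.0504 in limma for CD24 high). All 3 probes placed CD24 medium below CD24 low and CD24 high in value. The differences of CD24 low minus CD24 medium were 0.65, 0.68 and 0.33, with adjusted p from 0.403 to 0.528 in limma. Thus the alpha chain Itga6 was lower in CD24 high than in Lgr5 while the beta chain Itgb4 was higher there by its overlapping probes.

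**Figure D3:**
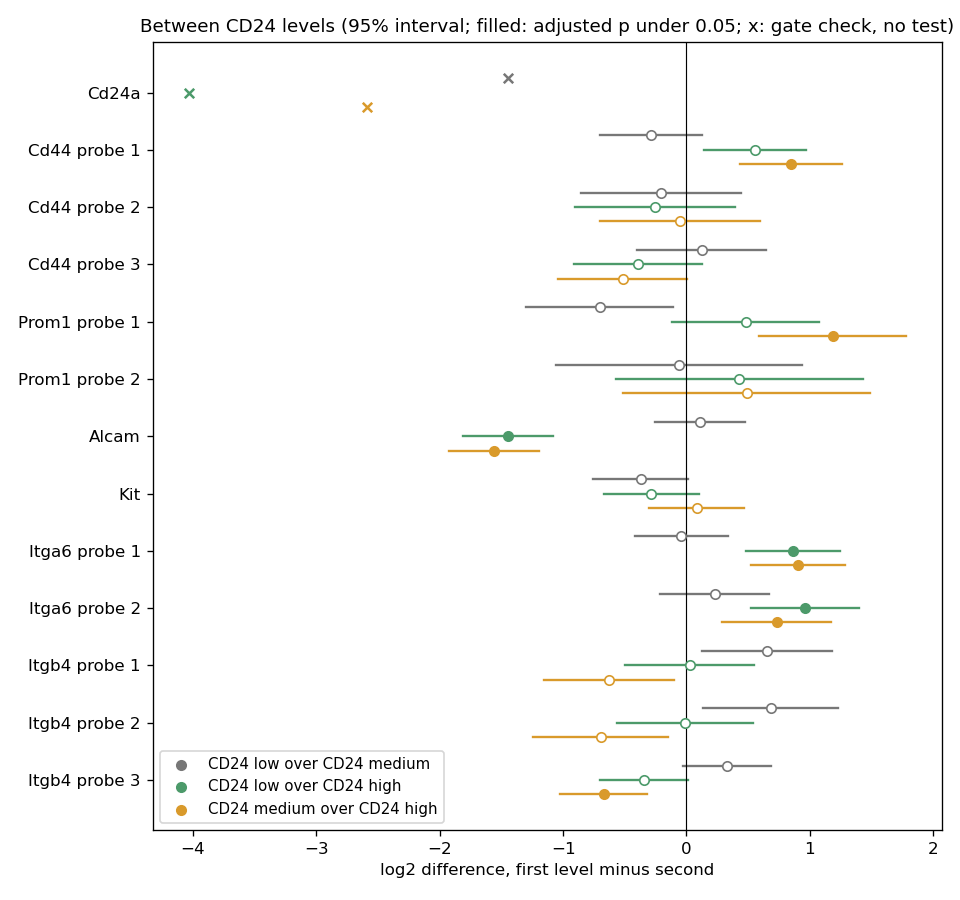
Log2 difference between CD24 levels (horizontal axis; the first named level minus the second) for each probe, with 95% intervals from limma. Filled points passed at an adjusted p under 0.05, and crosses are Cd24a, which was not tested. Alcam lies at −1.45 and −1.56 for CD24 low and CD24 medium minus CD24 high, both Itga6 probes lie between 0.73 and 0.96 there, and no probe passed between CD24 low and CD24 medium.

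Of 14 other integrin subunit genes, 12 were measured, each by its brightest probe. Between CD24 levels, 17.4 and 20.6% of all genes passed against CD24 high in either direction, for CD24 low and CD24 medium. Of the 12, 2 were lower in CD24 low than in CD24 high, with none higher. In CD24 medium 4 of 12 were lower than in CD24 high, with none higher. One of these 4 was Itgb3, at −0.91 by its brightest probe (limma adjusted p = 0.0161), whose other probe passed the opposite way at 0.57 (limma adjusted p = 0.0471), so its direction is uncertain. That other probe was also higher in CD24 low than in CD24 high, by 1.16 (limma adjusted p = 0.00436). Itga9 was lower in both comparisons by its brightest probe (−1.17 and −0.96). Its other probe gave 0.21 and 0.36, neither past the threshold, and both Itga9 calls were lost under some alternatives. Against Lgr5, 2 were higher in CD24 low, 1 was higher in CD24 medium, and 4 were higher and 1 lower in CD24 high, against 21.8, 18.8 and 35.7% of all genes. Itgb5, a chain that pairs with alpha v in a vitronectin receptor, read −1.87 and −1.94 in CD24 low, −2.11 and −2.06 in CD24 medium, −0.27 and −0.35 in CD24 high, and −2.42 in Lgr5. It was 2.11 higher in CD24 high than in Lgr5 (SE 0.18, limma adjusted p = 0.000455), and CD24 low and CD24 medium lay −1.60 and −1.78 relative to CD24 high (limma adjusted p = 0.000982 and 0.000756). Itga3, another laminin-binding alpha chain, was above Lgr5 by 1.27 in CD24 low, 0.81 in CD24 medium and 1.33 in CD24 high (limma adjusted p = 0.0101, 0.0448 and 0.0045). A further Itga3 probe gave 1.31, 0.77 and 0.93, and another gave 0.00, −0.06 and −0.38. The call for CD24 medium was lost without any of the CD24 low or CD24 medium arrays (0.0524 to 0.153).

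Hemidesmosome and laminin genes were a list of 16, of which 13 were measured (12 against Lgr5). In CD24 low 1 was higher and 2 lower than in CD24 high, and in CD24 medium 1 was higher and 4 lower, where 17.4 and 20.6% of all genes passed in either direction. Against Lgr5, 2 were higher and 2 lower in CD24 low, 4 higher and 1 lower in CD24 medium, and 6 higher and 1 lower in CD24 high, where 21.8, 18.8 and 35.7% of all genes passed. Lama5, the alpha 5 chain of basement membrane laminin, read −1.48 and −1.02 in CD24 low, 0.18 and 0.79 in CD24 medium, 2.80 and 2.36 in CD24 high, and −1.77 in Lgr5. It was 4.35 higher in CD24 high than in Lgr5 (SE 0.34, limma adjusted p = 0.000334). Lamb1, a laminin beta chain, was not above background in CD24 low or Lgr5, and CD24 high was at least 15.7-fold above Lgr5 (limma adjusted p = 0.000298). Plec, the plakin that binds the beta 4 chain inside the cell, was above Lgr5 by 1.74 in CD24 low, 1.34 in CD24 medium and 1.71 in CD24 high (limma adjusted p = 0.00228, 0.00569 and 0.001). Its 2 further probes gave 3.06 and 0.71, 2.43 and 0.31, and 1.93 and 0.50.

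Ligands and partners of these proteins were a list of 17, with 12 measured. None passed between CD24 low and CD24 medium, and Prom2 alone was lower in CD24 low and in CD24 medium than in CD24 high, where 17.4 and 20.6% of all genes passed. Against Lgr5, 3 were higher in CD24 low, 2 were higher and 1 lower in CD24 medium, and 3 were higher in CD24 high, beside 21.8, 18.8 and 35.7% of all genes. Ezr encodes ezrin, which ties the tails of CD44 and other membrane proteins to actin. It read −1.74 and −1.40 in CD24 low, −1.93 and −1.61 in CD24 medium, −1.28 and −1.09 in CD24 high, and −2.90 in Lgr5. Ezr was higher than in Lgr5 by 1.34, 1.13 and 1.72 in these groups (limma adjusted p = 0.0131, 0.0235 and 0.00277), lost for CD24 medium without its replicate 2 (0.108). All values lay below whole intestine.

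All 13 of a list of other surface proteins used for sorting were measured. Of these, 1 was lower in CD24 low than in CD24 high, and 1 was higher and 2 lower in CD24 medium than in CD24 high, against 17.4 and 20.6% of all genes. Compared with Lgr5, 4 were higher and 2 lower in CD24 low, 1 was lower in CD24 medium, and 4 were higher and 2 lower in CD24 high, against 21.8, 18.8 and 35.7% of all genes. Ephb3, an ephrin receptor of crypt base cells, read 0.21 and 0.45 in CD24 low, 1.35 and 1.72 in CD24 medium, 3.95 and 3.72 in CD24 high, and 1.33 in Lgr5. CD24 low lay −3.51 and CD24 medium −2.30 relative to CD24 high (limma adjusted p = 0.000118 and 0.00085). In value the levels stood in the order of Cd24a, but CD24 low minus CD24 medium (−1.21) missed the threshold (limma adjusted p = 0.131). Cd81, a tetraspanin, was low in all Dll1 fractions, at −0.98 and −0.55 in CD24 low, −0.64 and −0.04 in CD24 medium, −1.40 and −1.25 in CD24 high, and 1.09 in Lgr5. It was lower than in Lgr5 by differences of −1.86, −1.44 and −2.41 (limma adjusted p = 0.00942, 0.0227 and 0.00183), lost for CD24 medium without its replicate 1 (0.0723).

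The genes most like each member over the 7 arrays, by Pearson r of log2 ratios among 17318 genes, are given as a description. With 7 arrays that hold 3 pairs of replicates and 1 common reference, many genes reach a high r. Cd24a was most like the Paneth cell defensin genes Defa20 (r = 0.999), Defa4 (0.997) and Defa3 (0.996). Kit was most like Cbfa2t3 (0.998), Abca7 (0.994) and Ccl9 (0.992), and Alcam most like Gpr183, Tuba1c and Efemp2 (each 0.997). Cd44 was most like Ppp1cc (0.993), Hs1bp3 (0.992) and Bcl7c (0.99), and Prom1 most like Gdpd5 (0.991), Tia1 (0.987) and Nav1 (0.986). Itga6 was most like Tnpo1 (0.991), Zdhhc2 (0.989) and Ddx46 (0.989), and Itgb4 most like Mgat2 (0.992), Gsdmc (0.991) and Rilp (0.99). With Agilent's processed ratios r was 0.88 or more for all of these pairs except Itgb4 and Rilp, at 0.403. Among the members themselves, r by the brightest probes was lowest between Alcam and Itga6 (−0.97) and highest between Cd24a and Alcam (0.906).

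Markers of cell types that a crypt sort could hold differed between the groups. The median over 7 Paneth markers measured was −3.49 to −2.86 in CD24 low, −0.56 to −0.23 in CD24 medium, 5.13 to 5.55 in CD24 high, and −3.53 in Lgr5. The Paneth lysozyme gene Lyz1 was at 6.17 and 6.23 in CD24 high. The median over 12 enteroendocrine markers was 1.01 to 1.69 in CD24 low, 2.75 to 3.57 in CD24 medium, −0.02 to 0.17 in CD24 high and −1.27 in Lgr5. Goblet markers had medians of 2.84 to 3.73 in CD24 low, 2.57 to 2.79 in CD24 medium, 1.87 to 2.09 in CD24 high and −3.33 in Lgr5. Stem cell markers had medians of −0.92 to −0.75 in CD24 low, −0.66 to −0.54 in CD24 medium, −0.08 to 0.31 in CD24 high and 1.74 in Lgr5. Enterocyte markers were far below whole intestine in all groups, with medians between −4.85 and −2.80. Tuft markers had medians of −0.84 to −0.55 in CD24 low, −0.05 to 0.15 in CD24 medium, −0.07 to 0.10 in CD24 high and −0.72 in Lgr5. Those of mesenchyme and endothelium lay between −3.32 and −1.70. The part of cell composition in the surface marker differences was not tested.

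**Figure D4:**
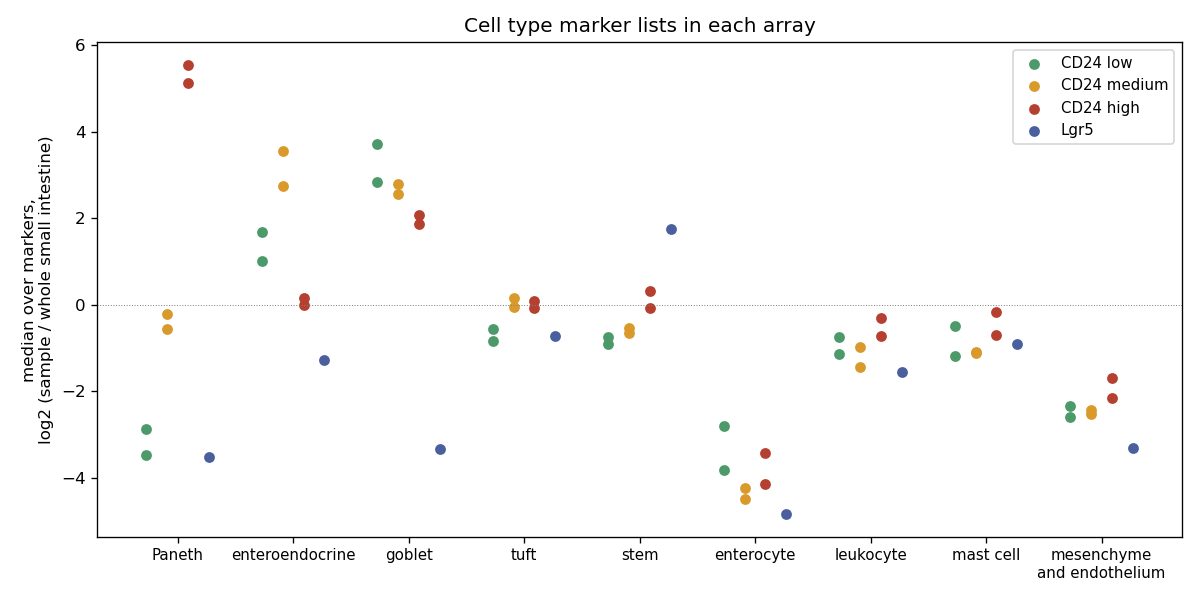
Median log2 ratio over whole small intestine (vertical axis) of each cell type marker list on each array of CD24 low, CD24 medium, CD24 high and Lgr5. Each point is 1 array. Paneth markers separate CD24 high (5.13 and 5.55) from the others, and goblet markers separate all Dll1 arrays from Lgr5 (−3.33).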

How the data were processed

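RNA of sorted mouse intestinal cells (Cy3) and of whole small intestine (Cy5) was hybridised on 7 dual-colour Agilent arrays, with no dye exchange, per the labels. Per the file headers, the deposited array files hold spot intensity that the authors extracted (Agilent Feature Extraction 10.5.1.1) and its log10 ratio. The deposited series matrix holds the same log10 ratios with the sign turned (largest difference 5e-06), so it gives sample over reference.

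Mean signals were corrected with normexp (offset 50) and normalised by loess within each array (span 0.3) with limma 3.58.1 in R 4.3.3; figures were drawn with matplotlib. Values are log2 of sample over reference. Control and sample outlier spots were left out, and spots of a probe were averaged. Saturated spots numbered 0. The filter kept 24495 probes with a sample signal well above background on 2 or more arrays. Limma was fitted with 1 mean per group to all 7 arrays (3 residual and 3.8 prior degrees of freedom), and Benjamini-Hochberg adjustment ran over all probes, with a threshold of 0.05. The number of arrays limits the precision. The fit was tested on simulated data. A bound ("at least") sets the bright group's mean against the higher of the dim probe's signal and the lowest signal well above background on each array, both dyes scaled together. Of 13 probes, 10 were named by RefSeq accession and the others by the array file.

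Named genes are all members, per member the 3 genes of highest r, up to 4 list genes with the largest difference past the threshold, the promoter genes, and up to 2 brightest markers per list. One of these markers is not reported here. Members and lists were chosen with earlier results of these data known. Deviations of same-numbered replicates correlated at 0.458 (CD24 low and medium), −0.009 (low and high) and 0.301 (medium and high). These values do not settle whether the numbers mark pairs. The main fit left pairing out, and the replicate number as a block was run as an alternative. Slide 1 held CD24 medium 1, CD24 high 1 and Lgr5, and slide 2 the other arrays. Alternatives covered background correction, normalisation, filter, probe choice, slide, replicate block, arrays in the fit, an intensity trend and leaving out each array. Quantile scaling of average intensity left the log2 ratios unchanged, and the series matrix repeated Agilent's processed ratios, so neither setting is a separate check. Every alternative for a comparison with Lgr5 kept its single array.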

Additional observations from a re-analysis of the deposited data

How the results depend on the processing

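Over all single-probe results of the 7 genes and all alternatives, 1497 recomputed values stayed on the same side of the threshold, 64 lost the call, 20 gained one, 7 values without a test moved and 5 reversed. These totals include quantile scaling of average intensity and the series matrix, which repeat other settings. Of the 1497, 41 turned sign, none of them a called result. The count between CD24 low and CD24 medium was 0 under every alternative. The count between CD24 low and CD24 high (3) was 5 without background subtraction, with Agilent's processed log ratio and with the series matrix, and 1 on slide 2 alone. The count between CD24 medium and CD24 high (6) was 3 with the mean of all probes of each gene and 1 on slide 2 alone, which holds 2 CD24 low arrays and 1 each of CD24 medium and CD24 high. With the mean of all probes, which tests 7 genes in place of 13 probes, the counts against Lgr5 were 3 for CD24 low (6) and 6 for CD24 high (10). Leaving out each array gave 0 to 0, 1 to 3 and 1 to 6 between levels (CD24 low and medium, low and high, medium and high), and 4 to 6, 3 to 5 and 8 to 10 against Lgr5 for CD24 low, medium and high. The second Cd44 probe reversed: CD24 low minus CD24 high (−0.25) was 2.09 with Agilent's processed log ratio and with the series matrix, and CD24 medium minus CD24 high (−0.05) was 2.95 with both and 0.78 with the sample channel alone. It was not above background in CD24 high, which limits both values. With the replicate number as a block, 8 of 12 probes passed between CD24 medium and CD24 high, the overlapping Itgb4 pair added, 3 between CD24 low and CD24 high, and 0 between CD24 low and CD24 medium. Agilent's processed ratios moved the median of all probes to 0.27 (CD24 low minus high), 0.24 (medium minus high) and −0.18 (high minus Lgr5), and the share of calls that were higher to 61.6, 60.0 and 42.4%, against 38.4, 36.0 and 59.3%. With the sample channel alone the shares were 53.6, 54.4 and 40.6%, and 39.8 and 42.1% for CD24 low and medium against Lgr5 (56.4 and 55.1%). With slide as a term the share for CD24 low against Lgr5 was 67.5%. The cause of these shifts was not tested. Kit, the first 2 Cd44 probes and, for CD24 high, Alcam and the first Itga6 probe kept their calls against Lgr5 in all alternatives. Cd24a, a check of the gate, also kept its call for CD24 high.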
